A study of Mus musculus with 2 samples.

Results

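Collagen chain genes encode the polypeptides that wind around each other into the rod of every collagen molecule. They were taken here as the genes whose symbol is Col, a number, the letter a and a number and that have a protein-coding transcript in the deposited transcript tables. This gave 44 members among 55536 genes, of which 22028 are protein-coding. They were measured by total RNA-seq, with ribosomal RNA reduced, in 2 libraries of hippocampal tissue, labelled as a layer of the hippocampus. Both came from female B6CASTF1/J mice, first-generation hybrids of C57BL/6J and CAST/EiJ, aged 18 to 20 months, and each was made from 300 ng of RNA with synthetic ERCC spike-in RNA. There is no second genotype, age, sex or treatment. The 2 libraries carry replicate numbers 2 and 1, a biosample label each and the same donor label, and the labels do not tell whether they came from different mice. A ratio between them therefore compares these 2 libraries, with no replicate check and no p-value. It is always given as replicate 2 over replicate 1.

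A collagen chain is defined by a Gly-X-Y repeat, in which glycine recurs at a fixed step because only glycine is small enough for the inside of the triple helix. Fibrillar collagens (types I, II, III, V, XI, XXIV and XXVII) form the load-bearing cables of connective tissue and, in the brain, lie mainly in the meninges and around larger vessels. Type IV chains form the mesh of basement membranes under blood vessels and the pial surface. FACIT collagens, the fibril-associated collagens with interrupted triple helices, attach to fibrils, multiplexins sit at basement membranes, and type VI forms beaded filaments. The transmembrane collagens stay anchored in the plasma membrane, and some of them, with the FACIT chain Col19a1, are made by neurons.

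The repeat that joins these genes, and the way classes differ in it, is shown by 3 stretches of 90 coding bases in which capitals mark the codons of the repeat glycines. They are from the annotated coding sequences of the leading complete coding transcripts (GENCODE M21), read 5′ to 3′ on the coding strand. The fibrillar Col1a1 (Col1a1-201, codons 168 to 197) keeps the repeat unbroken, the basement membrane chain Col4a1 (Col4a1-201, codons 212 to 241) has an interruption of 2 codons at codon 224, and the neuronal Col25a1 (Col25a1-202, codons 185 to 214) again runs unbroken over this stretch.
Col1a1: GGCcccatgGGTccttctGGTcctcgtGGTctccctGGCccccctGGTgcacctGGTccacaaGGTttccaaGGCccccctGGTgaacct
Col4a1: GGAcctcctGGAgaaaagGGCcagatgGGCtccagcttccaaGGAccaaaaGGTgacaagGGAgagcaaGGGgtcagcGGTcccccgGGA
Col25a1: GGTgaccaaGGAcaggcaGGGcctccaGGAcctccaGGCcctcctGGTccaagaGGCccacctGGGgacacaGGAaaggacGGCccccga

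A run was counted as at least 6 glycine triplets in a row, and all 44 members had a complete coding sequence to scan. The longest run was 216 to 344 triplets in the 11 fibrillar genes, which had 2 to 3 runs each. It was 39 to 66 triplets in the 6 type IV genes, which had 22 to 27 runs each, and 37 to 55 triplets in the 4 transmembrane genes. Col25a1, with 640 codons, had 6 runs, the longest of 37 triplets. The shortest longest runs were in Col26a1, with 23 triplets, and Col28a1, with 28 triplets. Col7a1, the chain of the anchoring fibrils of skin, had 18 runs and 118 exons, against 3 to 4 exons in the type VIII and X genes. RNA levels, given below, were spread far more widely within the fibrillar and type IV classes than these run lengths.

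The libraries held 36307276 gene-assigned expected counts in replicate 2 and 35358099 in replicate 1. An expected count is the number of reads that the authors' program assigned to a gene, shared out where a read matches several. All 44 collagen genes had counts in both libraries. Together they took 17182 of 29164716 protein-coding counts in replicate 2 and 16404 of 28508174 in replicate 1. This is 0.0589% (exact 95% binomial interval 0.0580% to 0.0598%) in replicate 2 and 0.0575% (0.0567% to 0.0584%) in replicate 1, with a mean of 0.0582% ± 0.00097 (SD, n = 2). Intervals here and below cover counting error only, and reads without molecular identifiers are not independent molecules. In transcripts per 1000000 (TPM), which divide by transcript length and allow levels of different genes to be compared, the family summed to 133.1 in replicate 2 and 132.7 in replicate 1. At least 1 TPM in both libraries was reached by 21 of the 44 genes (47.7%), against 57.8% of all protein-coding genes. The median collagen gene had 1.25 TPM in replicate 2, against 0.905 TPM in replicate 1, and the median protein-coding gene had 3.23 TPM in replicate 2, against 3.30 TPM in replicate 1. As a check of the tissue label, 6 of 6 markers of hippocampal fields (Prox1, Wfs1, Mpped1, Bok, Pcp4 and Zbtb20) and 5 of 5 of excitatory neurons were above 1 TPM in both libraries. With 57.8% of all protein-coding genes reaching 1 TPM, this is a weak check and cannot by itself place the tissue. The field markers summed to 376.5 TPM in replicate 2, against 405.4 TPM in replicate 1. Choroid plexus epithelium markers, which belong to a neighbouring tissue, summed to 58.7 TPM in replicate 2, against 164.7 TPM in replicate 1. Most of this sum was 1 gene, Ttr, with 49.1 TPM in replicate 2, against 150.4 TPM in replicate 1.

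**Figure D1:**
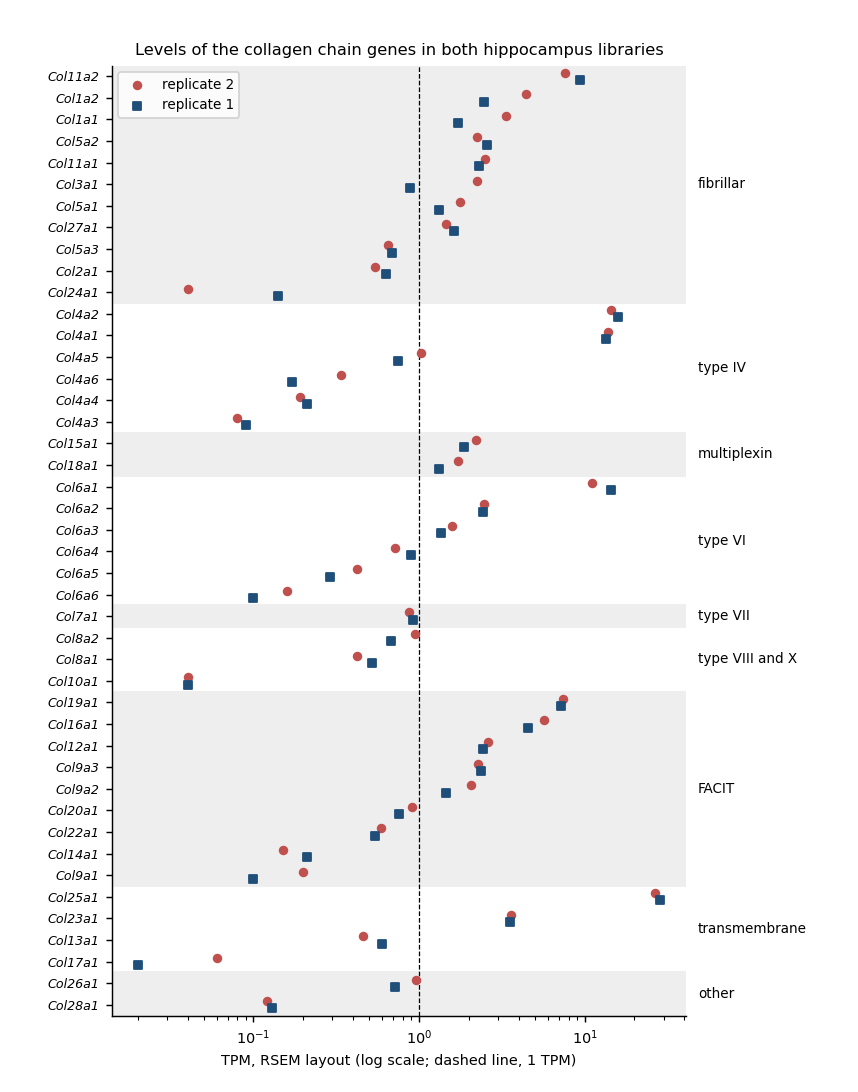
Level of each of the 44 collagen chain genes in TPM on a log axis, grouped by structural class, with a circle for replicate 2 and a square for replicate 1. Col25a1 (26.8 TPM in replicate 2, against 28.7 TPM in replicate 1) leads, and each of the larger classes runs from members above 1 TPM to members well below it.

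The family was led by a neuronal chain, 2 basement membrane chains and a type VI chain. Col25a1 (ENSMUSG00000058897, chr3:130131501-130599877, + strand), Col4a2, Col4a1 and Col6a1 together made up 49.5% of the family's TPM in replicate 2 and 54.7% in replicate 1. Col25a1 alone made up 20.1% in replicate 2 and 21.6% in replicate 1. It was above 83.2% of protein-coding genes in mean TPM, whereas Col4a2, next in order, was above 72.0%. Of the 43 pairs of neighbours in the order by mean TPM, 32 had ranges that overlapped between the libraries, so the order is firm only at its larger steps. Col25a1 stood above Col4a2 and Col6a1 above Col11a2 without overlap, while Col4a1 and Col6a1 overlapped. Col11a2 stood above Col19a1 without overlap here, but this step depended on the estimates used. In the kallisto layout, a second deposited set described below, Col11a2 had 10.22 TPM in replicate 2, against 11.25 TPM in replicate 1. Col19a1 had 11.67 TPM in replicate 2, against 10.71 TPM in replicate 1. Over transcripts of at least 2000 bases Col19a1 (7.46 and 7.16 TPM) was above Col11a2 (6.18 and 6.86 TPM) in replicates 2 and 1.

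Transmembrane collagens held the highest level of the family and, in their abundant members, nearly equal counts in both libraries. Col25a1, the precursor of a collagenous component of amyloid plaques, had 26.8 TPM in replicate 2, against 28.7 TPM in replicate 1 (mean 27.7 ± 1.34, SD, n = 2), from 3517 and 3502 counts. Its count ratio, after scaling for library size and composition, was 0.981 (0.936 to 1.03). Col23a1, another membrane-anchored collagen, had 3.59 TPM in replicate 2, against 3.54 TPM in replicate 1, with a ratio of 1.01 (0.895 to 1.15). The libraries were thus level for both genes within counting error. Col13a1, which acts at the neuromuscular junction, had 0.46 TPM in replicate 2, against 0.60 TPM in replicate 1, from 33 and 29 counts. Col17a1, a hemidesmosome collagen of skin, was near the limit of detection, with 5 counts in replicate 2 and 3 in replicate 1. Col25a1 was 7.46 times Col23a1 by TPM in replicate 2 and 8.10 times in replicate 1.

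Type IV chains, the basement membrane collagens, were dominated by the pair found in vessels throughout the body. Col4a2 had 14.4 TPM in replicate 2, against 16.0 TPM in replicate 1, and Col4a1 had 13.8 TPM in replicate 2, against 13.5 TPM in replicate 1. Their ratios of counts were alike, 0.938 (0.887 to 0.991) for Col4a2 and 0.938 (0.876 to 1.00) for Col4a1, although the TPM of Col4a1 was higher in replicate 2. The other chains were far lower. Col4a5 had 1.03 TPM in replicate 2, against 0.75 TPM in replicate 1, and Col4a1 was 13.4 times it in replicate 2 and 18.0 times in replicate 1. Col4a6, which pairs with Col4a5 in some basement membranes, had 0.34 TPM in replicate 2, against 0.17 TPM in replicate 1. Col4a3 and Col4a4, best known from the filter of the kidney, had at most 0.21 TPM in either library. Col4a5 and Col4a6 were the type IV chains higher in replicate 2 beyond counting error, with ratios of 1.58 (1.24 to 2.02), from 176 counts in replicate 2 and 109 in replicate 1, and 2.13 (1.34 to 3.46), from 61 and 28 counts. The median log2 ratio of the 6 genes was 0.02 by counts and -0.06 by deposited TPM, and the sign of this median thus depended on the table. Their summed counts were 0.962 (0.923 to 1.00) times those of replicate 1.

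The multiplexins, which sit at the outer face of basement membranes, were lower than the main type IV pair. Col15a1 had 2.20 TPM in replicate 2, against 1.86 TPM in replicate 1. Col18a1, whose end fragment is endostatin, had 1.72 TPM in replicate 2, against 1.32 TPM in replicate 1, with a count ratio of 1.37 (1.12 to 1.68). Col18a1 overlaps Slc19a1 on the opposite strand, which had 359 counts in replicate 2 and 340 in replicate 1, more than the 233 and 166 of Col18a1. No source used here gives the strand setting of the counting, so reads from the shared stretch cannot be told apart.

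Fibrillar collagens were led by a type XI chain rather than by type I. Col11a2, a chain that with Col11a1 sets fibril diameter in cartilage, had 7.58 TPM in replicate 2, against 9.45 TPM in replicate 1. The chains of type I collagen, the main fibril of connective tissue, followed. Col1a2 (chr6:4504814-4541544, + strand) had 4.41 TPM in replicate 2, against 2.46 TPM in replicate 1. Col1a1 (chr11:94936224-94953042, + strand) had 3.37 TPM in replicate 2, against 1.73 TPM in replicate 1. Replicate 2 was the higher library for both. For Col11a2 the libraries were level within counting error, with a count ratio of 0.928 (0.848 to 1.01), from 966 and 1017 counts. Over transcripts of at least 2000 bases Col11a2 had 6.18 TPM in replicate 2, against 6.86 TPM in replicate 1. Col3a1 (chr1:45311538-45349706, + strand), the chain of type III collagen of soft tissue and vessel walls, had 2.25 TPM in replicate 2, against 0.88 TPM in replicate 1. Col5a2, which regulates fibril growth, had 2.25 TPM in replicate 2, against 2.58 TPM in replicate 1. Col11a1 had 2.52 TPM in replicate 2, against 2.29 TPM in replicate 1. Lower still were Col5a1, Col27a1, Col5a3, Col2a1, the main chain of cartilage fibrils, and Col24a1, whose mean TPM ran from 1.55 down to 0.09. Col2a1, which shares fibrils with type XI in cartilage, had 37 counts in replicate 2 and 49 in replicate 1, and Col11a2 was 14 times it by TPM in replicate 2 and 15 times in replicate 1.

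Counts that differed over 2-fold, with a mean count of at least 50, were found for 3 of the 44 collagen genes, all higher in replicate 2 and all fibrillar. Among all 14307 genes with that mean count, 0.384% were over 2-fold apart, 0.231% being higher and 0.154% lower in replicate 2. Of the 44 members, 32 had that mean count. Col1a2 had 617 counts in replicate 2 and 284 in replicate 1, a ratio of 2.12 (1.84 to 2.45). Col1a1 had 536 counts in replicate 2 and 257 in replicate 1, a ratio of 2.04 (1.75 to 2.37). Col3a1 had 181 counts in replicate 2 and 70 in replicate 1, a ratio of 2.53 (1.91 to 3.38). The authors deposited 2 sets of estimates for the same libraries, called here the RSEM layout, used unless stated otherwise, and the kallisto layout. By the kallisto-layout counts, 2 of the genes, Col1a2 and Col3a1, were over 2-fold apart, and the log2 ratio of Col1a1 was 0.97. By deposited TPM, 1 of them, Col3a1, was over 2-fold apart, and the log2 ratios were 0.84 for Col1a2 and 0.96 for Col1a1. The other fibrillar chains did not go the same way. Col5a1 was higher in replicate 2, with a ratio of 1.41 (1.21 to 1.65), from 403 counts in replicate 2 and 279 in replicate 1. Col5a2 was lower in replicate 2, with a ratio of 0.822 (0.711 to 0.949), from 350 counts in replicate 2 and 416 in replicate 1. Col11a1 was also lower by counts, at 0.826 (0.706 to 0.966), though its TPM was higher. Over transcripts of at least 2000 bases its TPM was lower too, at 1.92 in replicate 2, against 2.1 in replicate 1. Col24a1 was lower too, on few counts, with 7 in replicate 2 and 25 in replicate 1, a ratio of 0.273 (0.0999 to 0.650). By kallisto-layout counts it had 12 in replicate 2 and 27 in replicate 1, and its log2 ratio was -1.07, against -1.61 by the RSEM layout. In all, 4 fibrillar genes were higher and 7 lower in replicate 2 by counts, while 5 were higher by deposited TPM and by kallisto-layout counts. Of the 7, Col11a2, Col27a1, Col5a3 and Col2a1 had intervals that included 1. The log2 ratios of the class had a median of -0.05 and a mean of 0.10. The median was 0.00 over the 18350 genes averaging at least 10 counts. Summed counts of the fibrillar genes were 1.18 (1.12 to 1.24) times as high in replicate 2.

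**Figure D2:**
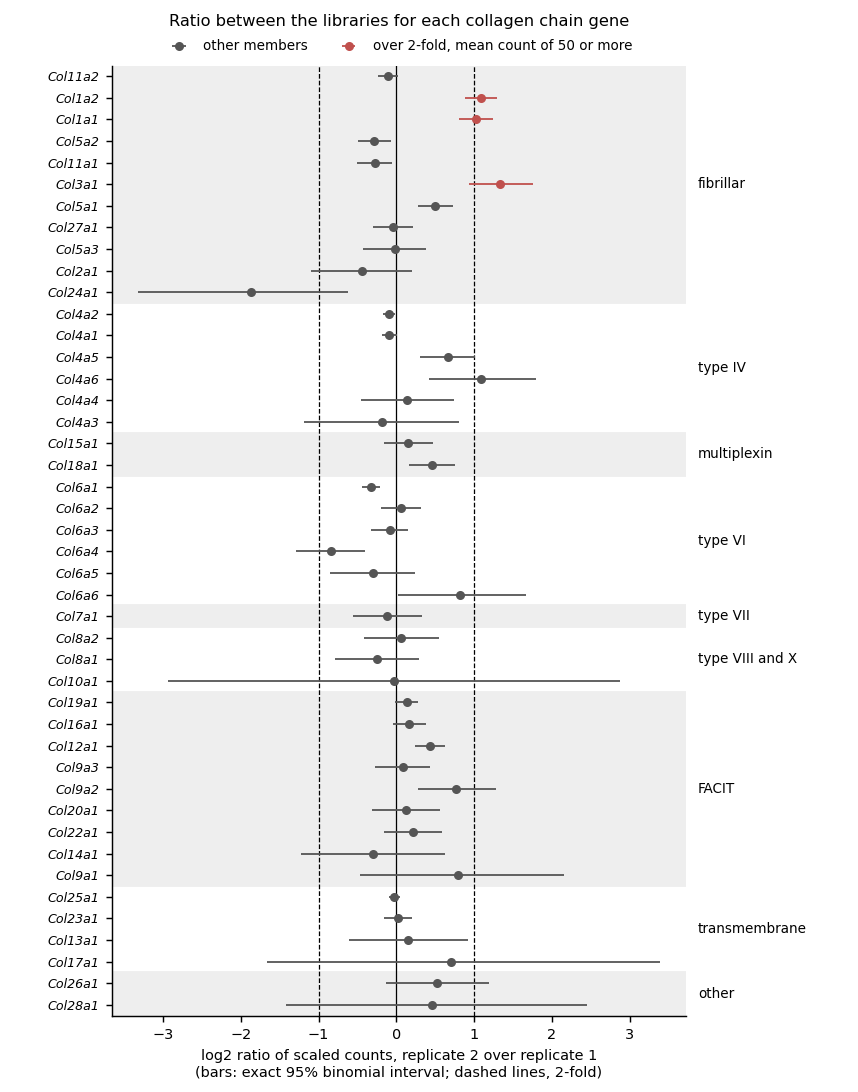
Ratio of scaled counts, replicate 2 over replicate 1, on a log2 axis for each of the 44 collagen chain genes by class, with exact 95% binomial intervals as bars. Of the genes averaging at least 50 counts, Col1a2, Col1a1 and Col3a1 lie beyond the 2-fold lines (2.12, 2.04 and 2.53), as do Col4a6 (2.13) and Col24a1 (0.273) on fewer counts, Col5a2 and Col11a1 of the same class lie below equal counts, and intervals widen for genes with few counts.

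Markers of cells outside the neural tissue differed between the libraries as well. The 8 meningeal fibroblast markers, none of them a collagen, were all higher in replicate 2. They summed to 69.7 TPM in replicate 2, against 37.9 TPM in replicate 1, none was at 0, their median log2 ratio was 1.03 and 4 of them (Igf2, Slc6a13, Aldh1a2 and Slc22a6) were over 2-fold apart. Single markers of this list ran from 0.30 to 1.32, and Col1a1 (1.02), Col1a2 (1.08) and Col3a1 (1.31) lay within that range. These 3 collagen genes were picked for being over 2-fold apart, so their nearness to the median partly follows from the choice. Of the other fibrillar genes, Col5a1 had 0.49 and 7 were lower in replicate 2 by counts. For Col11a2, Col27a1, Col5a3 and Col2a1 among these 7, the interval of the ratio included 1. Mural cell markers summed to 68.3 TPM in replicate 2, against 53.0 TPM in replicate 1, with 9 of 10 higher (8 by TPM), a median of 0.48 and Anpep over 2-fold apart. By counts all 9 endothelial markers, and by deposited TPM 7 of them, were higher in replicate 2, with sums of 84.8 TPM in replicate 2, against 81.3 TPM in replicate 1, and a median of 0.28. By counts the 10 choroid plexus markers were all lower in replicate 2, with at most 1 exception in any other scaling or table and a median of -0.99, and Ttr and Clic6 were over 2-fold apart. The mean count of 50 needed for this call was reached by 7 of the 8 fibroblast, 8 of the 10 mural and 5 of the 10 choroid plexus markers. Of all genes with that count, 0.384% were over 2-fold apart. The part of these markers in the collagen ratios was not tested. In bulk tissue, fewer cells of a type and less RNA per cell cannot be told apart. The 7 oligodendrocyte markers were all lower in replicate 2, with sums of 899.2 TPM in replicate 2, against 1237 TPM in replicate 1, and a median of -0.36. Medians of the other lists were near 0, at 0.03 for 6 astrocyte, 0.08 for 6 microglia, -0.03 for 5 excitatory neuron, 0.02 for 6 GABAergic interneuron and -0.04 for 6 hippocampal field markers.

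Type VI collagen, the beaded filament around vessels and nerves, was carried by Col6a1. It had 11.04 TPM in replicate 2, against 14.5 TPM in replicate 1 (mean 12.8 ± 2.46, SD, n = 2), from 1205 and 1475 counts. Its count ratio of 0.798 (0.739 to 0.861) placed replicate 2 lower beyond counting error. Col6a2 had 2.46 TPM in replicate 2, against 2.44 TPM in replicate 1, and Col6a3 had 1.59 TPM in replicate 2, against 1.36 TPM in replicate 1. These chains assemble with Col6a1 into one molecule. The ratio of Col6a2, 1.04 (0.874 to 1.25), had an interval above that of Col6a1, while that of Col6a3, 0.942 (0.800 to 1.11), had one that overlapped it. Of the chains that can stand in for Col6a3, Col6a4 had 68 counts in replicate 2 and 119 in replicate 1, a ratio of 0.558 (0.408 to 0.758). Col6a5 had 54 counts in replicate 2 and 65 in replicate 1, and Col6a6 had 38 in replicate 2 and 21 in replicate 1. The median log2 ratio of the 6 genes was -0.19, and it ran from -0.20 to 0.17 over the other scalings and tables. The summed counts of the class, of which Col6a1 held the greater part, were 1926 in replicate 2 and 2235 in replicate 1, a ratio of 0.841 (0.791 to 0.895).

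Of the 9 FACIT genes, 8 were higher in replicate 2 by counts, 7 by TPM and 6 by kallisto-layout counts, though none was over 2-fold apart. Their median log2 ratio was 0.17 and their summed counts were 1.17 (1.10 to 1.24) times as high in replicate 2. Col19a1, known in the mouse forebrain from interneurons and for a part in inhibitory synapse formation, had 7.46 TPM in replicate 2, against 7.17 TPM in replicate 1. Its ratio of 1.10 (0.992 to 1.21) came from 835 counts in replicate 2 and 744 in replicate 1. Col16a1 had 5.69 TPM in replicate 2, against 4.56 TPM in replicate 1, with a ratio of 1.12 (0.972 to 1.30). Over transcripts of at least 2000 bases Col16a1 had 3.09 TPM in each library. Col12a1, which decorates type I fibrils, had 2.61 TPM in replicate 2, against 2.43 TPM in replicate 1, but its counts, 519 in replicate 2 and 377 in replicate 1, were further apart, at 1.34 (1.17 to 1.54). Col9a3, a chain of type IX collagen of cartilage, had 2.26 TPM in replicate 2, against 2.36 TPM in replicate 1. Its partner Col9a2 had 96 counts in replicate 2 and 55 in replicate 1, a ratio of 1.70 (1.21 to 2.42). The third chain of type IX, Col9a1, had 16 counts in replicate 2 and 9 in replicate 1. Col20a1 and Col22a1 were below 1 TPM in both libraries, as was Col14a1, which was lower in replicate 2, with 20 counts in replicate 2 and 24 in replicate 1. Col20a1 shares its locus and strand with BX649560.1, which had 498 counts in both libraries, so the 97 counts in replicate 2 and 87 in replicate 1 of Col20a1 are uncertain.

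The remaining classes were low. Col7a1 had 0.87 TPM in replicate 2, against 0.92 TPM in replicate 1. Col8a2 and Col8a1, chains of the sheet-like type VIII collagen found under endothelia, had 0.94 and 0.42 TPM in replicate 2 and 0.68 and 0.52 TPM in replicate 1. Col10a1, a marker of the growth plate, had 3 counts in each library, and lies within Nt5dc1 on the opposite strand. Col26a1 had 0.96 TPM in replicate 2, against 0.72 TPM in replicate 1, and Col28a1, first described in peripheral nerve, had 7 counts in replicate 2 and 5 in replicate 1.

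Across the family, the libraries agreed less well than for genes at large, while the total differed little. Summed collagen counts were 1.02 (1.00 to 1.05) times as high in replicate 2. Among the 41 members averaging at least 10 counts, 23 were higher and 18 lower in replicate 2, and the median of their log2 ratios was 0.06. The median size of the log2 ratio, sign left out, was 0.16 for the 32 members averaging 50 counts or more and 0.07 for all genes with that count. Within 1.2-fold lay 19 of those 32 members, against 89.6% of all genes. The median of the mean count was 253.8 for these members and 722.5 for all these genes, and the part of depth in this difference was not tested. The exact interval of the ratio lay above 1 for 10 members, below 1 for 6 and included 1 for 28. No share over all genes was taken for these counts, so they cannot be compared with genes at large. Of the 32 members averaging 50 counts or more, 13 had an interval that left out 1, with 8 above and 5 below, against 20.1% of all 14307 genes with that count, 9.86% above and 10.2% below. Of the 32 members, 28 had the same sign of the log2 ratio in the RSEM-layout and kallisto-layout tables.

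Chains that share a molecule were then compared within each library, since the ratio of their levels needs no scaling between libraries. Col1a1 was 0.764 times Col1a2 by TPM in replicate 2 and 0.703 times in replicate 1. In the assembled type I molecule the Col1a1 chain is the more numerous. Over transcripts of at least 2000 bases, a restriction chosen after seeing the data, the ratio was 0.782 in replicate 2 and 0.832 in replicate 1. By kallisto-layout TPM it was 0.669 in replicate 2 and 0.476 in replicate 1, so that Col1a1 was below Col1a2 in all 3 forms. Col4a1 was 0.960 times Col4a2 in replicate 2 and 0.844 times in replicate 1, and here the value depended on short transcripts. Over transcripts of at least 2000 bases it was 0.632 in replicate 2 and 0.642 in replicate 1, and by kallisto-layout TPM it was 1.02 in replicate 2 and 0.978 in replicate 1. Col6a1 was 4.49 times Col6a2 in replicate 2 and 5.95 times in replicate 1. Col6a1 was also 6.94 times Col6a3 in replicate 2 and 10.7 times in replicate 1. Col11a2 was 3.01 times Col11a1 in replicate 2 and 4.13 times in replicate 1. Among the type IX chains, Col9a1 was 0.0885 times Col9a3 in replicate 2 and 0.0424 times in replicate 1. Col5a1 was 0.791 times Col5a2 in replicate 2 and 0.512 times in replicate 1.

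**Figure D3:**
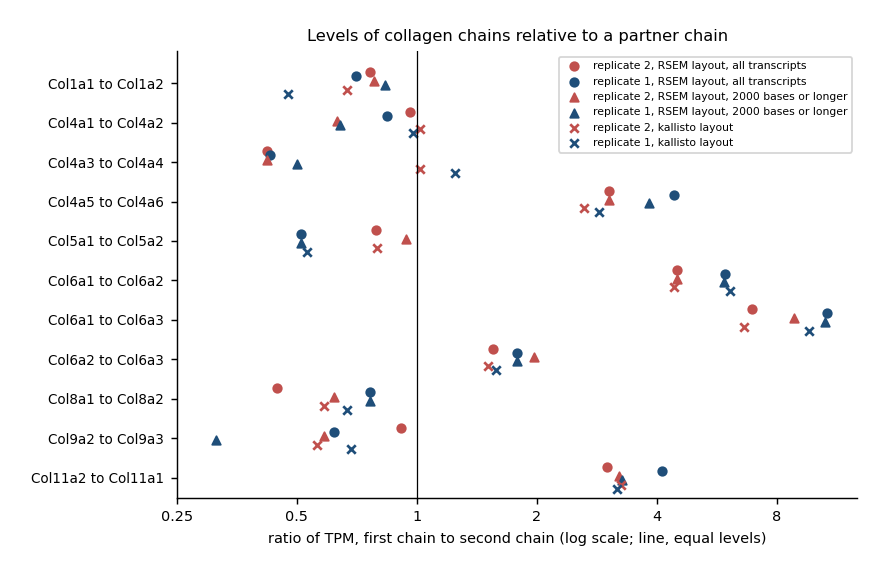
Ratio of the TPM of a collagen chain to that of a partner chain, on a log axis, for 11 pairs, each library and 3 ways of measuring the level. Col6a1 exceeds Col6a2 and Col6a3, and Col11a2 exceeds Col11a1, in each library and form, while Col4a1 to Col4a2 ranges from 0.632 to 1.02 with the transcripts and table used.

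The 44 collagen genes have 224 annotated transcripts, of which 106 are protein-coding. Among the 22 genes with a mean of at least 1 TPM, the same transcript took the largest share in both libraries for 21, and for 17 it also led in both libraries by the kallisto layout. The exception was Col16a1. Its protein-coding Col16a1-210 took 24.5% of the gene's TPM in replicate 2 and 41.2% in replicate 1, while Col16a1-209, annotated as a nonsense-mediated decay transcript, took 29.8% in replicate 2 and 13.2% in replicate 1. For the neuronal Col25a1, protein-coding Col25a1-202 took 44.8% in replicate 2 and 44.9% in replicate 1. Col25a1-204, also annotated for nonsense-mediated decay, came close behind with 40.0% in replicate 2 and 37.0% in replicate 1. The kallisto layout put Col25a1-204 at 39.8% in replicate 2 and 36.6% in replicate 1. Col19a1 was spread over Col19a1-201, with 47.0% in replicate 2 and 48.5% in replicate 1, and 2 longer transcripts, of which the non-coding Col19a1-203 had 32.1% in replicate 2 and 30.0% in replicate 1. The kallisto layout instead put Col19a1-202 first, with 34.9% in replicate 2 and 39.3% in replicate 1. It gave Col19a1-201 32.6% in replicate 2 and 31% in replicate 1. These shares are estimates from short reads and were not tested against full-length reads here.

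**Figure D4:**
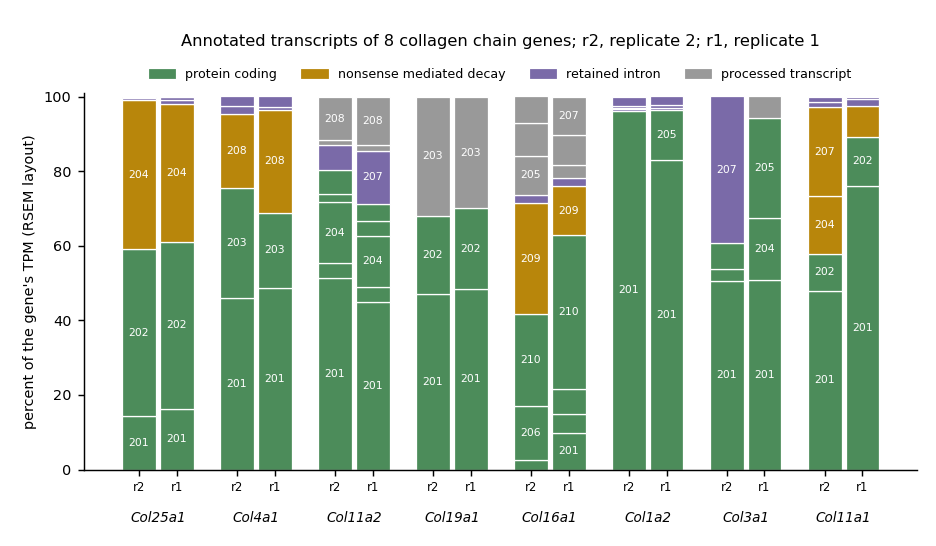
Percent of each gene's TPM in each annotated transcript for 8 collagen genes, replicate 2 (r2) left of replicate 1 (r1), with colours for the annotated transcript type and the number of each transcript with at least 9%. Col25a1 and Col19a1 keep nearly the same makeup in both libraries, while Col16a1, Col3a1 and Col11a1 do not.

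Short transcripts weighed on the makeup of some genes. Col3a1-201, the full-length type III transcript, took 50.5% in replicate 2 and 50.8% in replicate 1. A fragment of 431 bases with a retained intron, Col3a1-207, took 39.4% of Col3a1 TPM in replicate 2 from 8.01 counts, and 0% in replicate 1. Col4a1-203, a coding fragment of 545 bases, took 29.4% of Col4a1 TPM in replicate 2 and 20.1% in replicate 1 from 49.3 and 30.9 counts. Since TPM divides by length, a few reads on a short transcript weigh as much as many on a long one. With transcripts of at least 2000 bases only, Col4a1 had 9.07 TPM in replicate 2, against 10.3 TPM in replicate 1, and Col3a1 had 1.13 TPM in replicate 2, against 0.45 TPM in replicate 1. Col11a1-201 took 47.9% in replicate 2 and 76.1% in replicate 1. Col9a3-201 took 75.8% in replicate 2 and 74.1% in replicate 1 by the RSEM layout, whereas the kallisto layout gave it next to nothing and placed 49.3% in replicate 2 and 63.6% in replicate 1 on Col9a3-203. By the mean share of both libraries, the leading transcript was protein-coding for 21 of the 22 genes in the RSEM layout, Col9a2 with Col9a2-202 being the exception, and for all 22 in the kallisto layout, where Col9a2-201 led. Over the family, protein-coding transcripts held 77.5% of TPM in replicate 2 and 79.4% in replicate 1, and nonsense-mediated decay transcripts held 12.5% in replicate 2 and 11.7% in replicate 1.

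Several collagen genes lie side by side in the genome (mm10), and the neighbours were compared for their ratios. Col4a1 (chr8:11198423-11312826, - strand) and Col4a2 (chr8:11312805-11449287, + strand) stand head to head, their annotated starts overlapping by 22 bases, and both had a log2 ratio of -0.09. Col4a6 and Col4a5, head to head on chromosome X with 1308 bases between them, were both higher in replicate 2, with log2 ratios of 1.04 and 0.65. Col4a4 and Col4a3, head to head on chromosome 1 with a gap of 71 bases, had log2 ratios of 0.13 and -0.17 on few counts. Col3a1 and Col5a2, which stand tail to tail on chromosome 1, had opposite ratios, with a log2 ratio of 1.31 for Col3a1 and -0.28 for Col5a2. Neighbouring type VI genes Col6a6, Col6a5 and Col6a4, on 1 strand of chromosome 9, had log2 ratios of 0.77, -0.29 and -0.82.

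For the fibrillar genes that were over 2-fold higher in replicate 2, bases before the RefSeq start are shown for Col1a2 and Col3a1, from RefSeq on GRCm38.p6, the assembly also called mm10. For Col3a1 they are the 200 bases before the start (chr1:45311338-45311537, + strand), with TATAAA in capitals at -117. For Col1a2 they are 123 bases (chr6:4505370-4505492, + strand) that end 125 bases before the RefSeq start, where the first exon of Col1a2-201 begins in GENCODE M21. This stretch lies in an intron of Col1a2-205, and capitals mark GGGCGG at -205 and -188 from the RefSeq start.
Col1a2: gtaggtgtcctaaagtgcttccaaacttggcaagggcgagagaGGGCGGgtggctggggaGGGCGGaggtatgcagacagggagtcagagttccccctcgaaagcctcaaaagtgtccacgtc
Col3a1: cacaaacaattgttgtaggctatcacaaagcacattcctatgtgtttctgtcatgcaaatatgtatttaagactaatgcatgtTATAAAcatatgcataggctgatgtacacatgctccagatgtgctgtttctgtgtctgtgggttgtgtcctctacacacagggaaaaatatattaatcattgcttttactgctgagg
In the 250 bases before the start, on either strand, CCAAT occurred in 34.2% of the 38 windows of 35 collagen genes and in 33.8% of all 32851 windows. TATAAA occurred in 13.2% of collagen windows and 12.4% of all windows, and GGGCGG in 57.9% of collagen windows and 32.7% of all windows. These are matches of letters, and say nothing of binding. Over these 250 bases the window of Col1a2 held CCAAT and GGGCGG and that of Col3a1 held TATAAA, so the pair shared none of the 3 motifs.

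Collagen chains need a set of enzymes and chaperones before they leave the cell, and genes for the first steps were expressed above the chains. The median gene of chain hydroxylation and glycosylation had 5.58 TPM in replicate 2, against 8.10 TPM in replicate 1. All 15 of these genes were at 1 TPM or more in both libraries, here called detected, summing to 219.1 TPM in replicate 2, against 245.2 TPM in replicate 1, and 5 were higher and 10 lower in replicate 2 with none over 2-fold apart. They were led by Ppib, a prolyl isomerase, with 73.4 TPM in replicate 2, against 78.6 TPM in replicate 1, P4hb, the shared subunit of prolyl hydroxylase, with 49.0 TPM in replicate 2, against 53.2 TPM in replicate 1, and Colgalt1, a collagen galactosyltransferase, with 21.7 TPM in both. Their median log2 ratio was -0.11. The 8 folding and export genes, led by the export receptor Mia3 with 84.2 TPM in replicate 2, against 79.7 TPM in replicate 1, Sec23a and Mia2, had a median of -0.05. Sec23a, a coat protein of export vesicles, had 40.7 TPM in replicate 2, against 42.2 TPM in replicate 1, and Mia2, a partner of Mia3, had 18.9 TPM in replicate 2, against 17.9 TPM in replicate 1. Propeptide cleavage, the step that frees fibrillar chains to assemble, had 6 of 8 genes detected and a median of -0.03. It was led by the protease Bmp1, with 13.8 TPM in replicate 2, against 15.6 TPM in replicate 1, before Adamts3, with 7.04 TPM in replicate 2, against 7.65 TPM in replicate 1, and Adamts2, with 6.4 TPM in replicate 2, against 6.8 TPM in replicate 1. None of the genes of these 3 steps was over 2-fold apart.

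Genes that act on collagen outside the cell were more uneven. Of 5 crosslinking oxidases only Loxl1 and Loxl3 were detected. The 4 that averaged at least 10 counts had a median log2 ratio of 0.49, Loxl3 alone being lower in replicate 2 by counts. The ratio of Loxl3, 0.853 (0.636 to 1.14), had an interval that included 1, and by deposited TPM all 4 were higher in replicate 2. Loxl1 had 1.72 TPM in replicate 2, against 1.31 TPM in replicate 1, and Lox, the founding member, had 25 counts in replicate 2 and 7 in replicate 1, below the mean count of 50. The 7 fibril-associated proteoglycans, which coat fibrils, summed to 62.1 TPM in replicate 2, against 46.8 TPM in replicate 1, with all 6 measured members higher in replicate 2 and a median log2 ratio of 0.47. Fmod, fibromodulin, had 425 counts in replicate 2 and 121 in replicate 1, a ratio of 3.43 (2.80 to 4.23). It was the 1 gene over 2-fold apart among 78 in the 8 lists of partners, of which 67 averaged at least 50 counts. Of all genes with that count, 0.384% were over 2-fold apart. Dcn, decorin, had 30.8 TPM in replicate 2, against 25.01 TPM in replicate 1, and Bgn, biglycan, 8.82 TPM in replicate 2, against 4.85 TPM in replicate 1. Prelp, another proteoglycan of this group, had 10.5 TPM in replicate 2, against 10.4 TPM in replicate 1. The 14 basement membrane partners summed to 219.2 TPM in replicate 2, against 211.9 TPM in replicate 1, with 13 higher in replicate 2 (12 by TPM) and a median of 0.21, while the counts of Col4a1 and Col4a2 were slightly lower. Sparc, a collagen-binding glycoprotein, led them with 118.8 TPM in replicate 2, against 114.7 TPM in replicate 1, followed by Agrn, agrin, with 45.3 TPM in replicate 2, against 47.8 TPM in replicate 1, and Lamb1, a laminin chain, with 14.8 TPM in replicate 2, against 14.1 TPM in replicate 1.

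**Figure D5:**
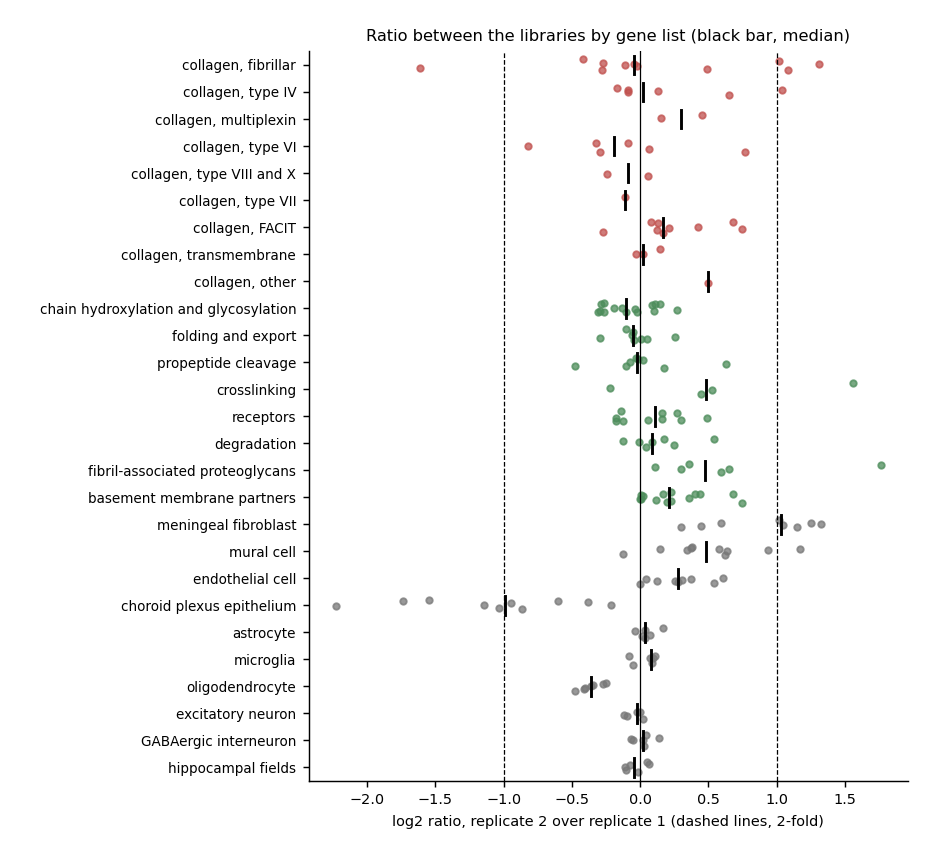
Log2 ratio of counts, replicate 2 over replicate 1, for each gene with a mean count of at least 10 in the 9 collagen classes (red), 8 lists of collagen partners (green) and 10 lists of cell type markers (grey), with a black bar at the median. Fibrillar collagens range from -1.61 to 1.31 around a median of -0.05, while meningeal fibroblast markers (median 1.03) and choroid plexus markers (median -0.99) are each on 1 side of 0.

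Collagen receptors were led by Adgrg1, a receptor of type III collagen in the developing mouse brain, with 35.9 TPM in replicate 2, against 43.7 TPM in replicate 1. Ddr1, a collagen-binding kinase, had 20.9 TPM in replicate 2, against 24.1 TPM in replicate 1, and Itgb1, the shared integrin subunit, had 13.6 TPM in replicate 2, against 13.8 TPM in replicate 1. Of the 11 receptors, 8 were detected. The 10 that averaged at least 10 counts had a median log2 ratio of 0.11, with 6 higher and 4 lower in replicate 2. Summed counts of the 11 receptors were 0.971 (0.939 to 1.00) times those of replicate 1. Among the 10 genes of collagen breakdown and its inhibitors, the inhibitors Timp2, with 100.9 TPM in replicate 2, against 103.2 TPM in replicate 1, and Timp3, with 25.7 TPM in replicate 2, against 23.5 TPM in replicate 1, stood above the membrane collagenase Mmp14, with 6.09 TPM in replicate 2, against 6.13 TPM in replicate 1. Mmp8 and Mmp13, the interstitial collagenases, had no counts in either library, which allows up to 3 counts in each. The median log2 ratio of the 7 genes of this list that averaged at least 10 counts was 0.08.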

How the data were processed

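Total RNA was sequenced by the authors from 2 libraries of 1 group. Per the deposited notes the reads were assigned on mm10 with GENCODE M21. No source used here gives the aligner, the program versions or the strand setting. Per the file headers, 1 set of gene and transcript tables has the columns that RSEM writes (called the RSEM layout). Its expected count, posterior mean count, TPM, FPKM and percent of a gene's TPM in each transcript are as the authors deposited them. A second set of transcript tables has the columns that kallisto writes, with estimated counts and TPM as the authors deposited them, which were summed per gene. Replicates were not pooled.

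Expected counts were rounded and scaled by TMM (edgeR 4.0.16 in R 4.3.3) over 17697 genes. A gene was over 2-fold apart where scaled counts differed more than 2-fold and averaged at least 50. Log2 ratios added 2 counts, and medians used genes averaging at least 10 counts. Intervals of ratios are exact binomial intervals at 95%, for counting error only. With 1 group and 2 libraries no test was possible. Rows that carry only a number as name, 26248 in each gene table, held 6.00 counts in replicate 2 and 2.78 in replicate 1 and were left out. The gene Col21a1 of the FACIT list was not matched in the tables. Glycine runs were read from GENCODE M21 coding sequences, promoters from RefSeq (GRCm38.p6). There were 35 members with a promoter window and 9 without, Col1a1 among the 9. The calling script was tested on simulated counts. The alternatives were other scalings (DESeq2 1.42.0 size factors, library totals, spike-in totals), other tables and other minimums.

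The collagen genes, the classes and the lists of partners and markers were chosen with earlier results of these data known. All collagen genes could be named. From each list of partners the 3 with the highest mean TPM and every gene over 2-fold apart were named. Lox, Mmp8 and Mmp13, and the genes that overlap collagen genes, were named after their values were seen.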

Additional observations from a re-analysis of the deposited data

How the results depend on the processing

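No paired analysis was possible because the study has 1 group. Of 308 values of single genes under 7 other scalings and tables, 304 kept their call, and among the 32 genes averaging 50 counts or more, 208 of 224 kept their sign. The exceptions in calls were Col1a2 by TPM (log2 ratio 0.84) and FPKM (0.91) and Col1a1 by TPM (0.96) and kallisto-layout counts (0.97). Only 3 of the 44 members were called, so most of the 304 values are of genes that stayed uncalled. All 4 exceptions fell on called genes. The size factor, library total, spike-in and posterior mean settings differed little from the main one, with Col1a2 at 1.076 to 1.086, against 1.080. They are thus a weak check. The count of collagen genes over 2-fold apart was 3, 5 with a mean count minimum of 10, 6 at 1.5-fold and 1 by deposited TPM. The family's median log2 ratio of 0.06 was 0.11 by FPKM, 0.027 by kallisto-layout counts and 0.13 as a mean. The fibrillar median of -0.05 was 0.10 as a mean. The type IV median of 0.02 was -0.057 by TPM and 0.24 as a mean, and the transmembrane median of 0.02 was -0.10 by TPM. Detected genes numbered 21, 31 at 0.5 TPM, 6 at 5 TPM, 29 by kallisto-layout TPM, 18 by FPKM, and 21 to 23 with either library left out. The collagen share of protein-coding counts, 0.0582%, was 0.0304% by TPM, 0.0603% by kallisto-layout counts and 0.0597% of nuclear genes, and 0.0575% to 0.0589% with either library left out. The Col1a1 to Col1a2 ratio of 0.734 was 0.887 by counts, 0.573 by kallisto-layout TPM and 0.807 over long transcripts, and 0.703 to 0.764 with either library left out. The Col4a1 to Col4a2 ratio of 0.902 was 0.669 by counts, 0.998 by kallisto-layout TPM and 0.637 over long transcripts, and 0.844 to 0.960 with either library left out. The number of genes with the same leading transcript in both libraries cannot be had from 1 library. The long-transcript setting was chosen after seeing the data. Depth limits the 12 members with a mean count under 50.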
